A study of Mustela putorius furo and Mus musculus with 4 samples.

Results

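The genes described here make cholesterol or regulate sterols, and were compared between cultured ferret and mouse astrocytes. Of 31 genes named from textbook knowledge of the pathway, 25 had a value under the same symbol in both species, out of 13373 symbols that the species shared. Mvd had a matched value in the ferret libraries alone, and Idi1, Fdps, Msmo1, Ebp and Insig1 in the mouse libraries alone, so these 6 genes entered no comparison between species. The ferret group was 2 libraries of primary astrocytes from the cerebral cortex of normally pigmented sable ferrets at postnatal day 1. The mouse group was 2 libraries of the same cell type from wild-type ICR mice at postnatal day 1 to 3. All cultures were grown as mixed glia for 14 days in medium with 10% fetal bovine serum, shaken for 12 hours, replated, and kept in serum-free medium with transferrin, albumin, progesterone and heparin-binding EGF-like growth factor before harvest. Each ferret pup filled several flasks, whereas several mouse pups were combined in a flask. The libraries were made in duplicate, and nothing states that the duplicates came from separate cultures, so the p-values measure the spread between these libraries, which may be technical.

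Cells build cholesterol from acetyl-CoA through mevalonate, the isoprenoids and squalene, and then close and trim the sterol ring. The transcription factors SREBP-1 and SREBP-2, encoded by Srebf1 and Srebf2, switch on these enzymes when they are released from the endoplasmic reticulum. SCAP escorts them out when membrane sterol is low, and INSIG proteins hold them back when it is high. The liver X receptors (LXR, encoded by Nr1h3 and Nr1h2) sense oxysterols and switch on genes that export sterol or limit its uptake. In the brain, which receives almost no cholesterol from the blood, astrocytes make much of the sterol that neurons use.

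Levels are given as FPKM, a fragment density normalized for exon length and for the number of mapped fragments, which the authors computed on the annotation of each species. FPKM alone gives no depth, and read counts were not used here. Differences are ferret minus mouse on the log2(FPKM + 1) scale, which understates the change of low genes, and were tested with limma over 10204 genes with a mean of at least 1 FPKM in at least one species. The call required a p adjusted by Benjamini-Hochberg below 0.05 together with a log2 difference beyond 1 in either direction. SE stands for the standard error of that difference. Added over the shared symbols, FPKM came to 227391 and 236543 in ferret libraries and to 300465 and 308122 in mouse libraries. Across the tested genes the median difference was -0.35 with FPKM as deposited, and it was -0.01 after the libraries were rescaled to the same sum and 0.05 after quantile normalization. Species, genome annotation and culture cannot be told apart in this design, and for a single gene the smallest two-sided p of an exact permutation test with 2 libraries in each species is 0.333.

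Marker genes were read as sums of FPKM over each list, which the most abundant markers dominate, and as counts called. Over all tested genes 13.1% were called higher and 30.1% lower in ferret. The 11 astrocyte markers summed to between 4704 and 4898 in ferret and between 10273 and 11054 in mouse libraries, with Slc1a2 under 1 FPKM in ferret. Of these 11 markers, 7 were called lower and 1 higher in ferret, and 3 had a positive log2 difference, so they did not all go one way. The 17 shared microglial markers summed to between 78.0 and 78.5 in ferret and between 1011 and 1031 in mouse libraries, 16 of the 17 tested were called lower in ferret, and Cx3cr1 was listed at 0 in both ferret libraries. All 10 meningeal fibroblast markers were called lower in ferret, with sums of 109 to 123 against 1781 to 1802, and Mgp was listed at 0 in both ferret libraries. The 10 shared oligodendrocyte lineage markers summed to between 170 and 189 in ferret and to 69.1 in both mouse libraries, and 4 of the 9 tested were called higher in ferret. The 5 shared neuronal markers summed to between 25.9 and 26.3 in ferret and between 31.9 and 33.2 in mouse libraries, and 2 of the 3 tested were called higher in ferret. The part of these other cells in the results below was not tested.

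Of the 25 genes, 4 were called higher and 10 lower in ferret astrocytes. Over all tested genes 13.1% were called higher and 30.1% lower. Lss, Tm7sf2, Mylip and Npc2 were the genes called higher. The 10 called lower were Mvk, Nsdhl, Srebf1, Srebf2, Scap, Insig2, Soat1, Cyp46a1, Ch25h and Nr1h3. The median log2 difference of the 25 genes was -0.47, beside -0.35 for all tested genes, and 13 of the 25 lay below that median of all genes. All 25 genes passed the filter on low values, of which Cyp46a1, Ch25h and Nr1h3 passed through their mouse level alone and so had to be lower in ferret. For each of the 25 genes both ferret libraries lay on one side of both mouse libraries, as they did for 94.1% of all tested genes, and 24 of the 25 passed the adjusted p alone, as did 88.6% of all tested genes. After rescaling to the same sum, 4 of the genes were called higher (19.1% of all tested genes) and 9 lower (21.7%). After quantile normalization 4 were called higher and 8 lower, with 20.4% of all tested genes called in each direction. Of the 14 genes called with FPKM as deposited, 12 were called in the same direction under all 3 scalings, and the other two, Srebf2 and Ch25h, are described below.

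**Figure D1:**
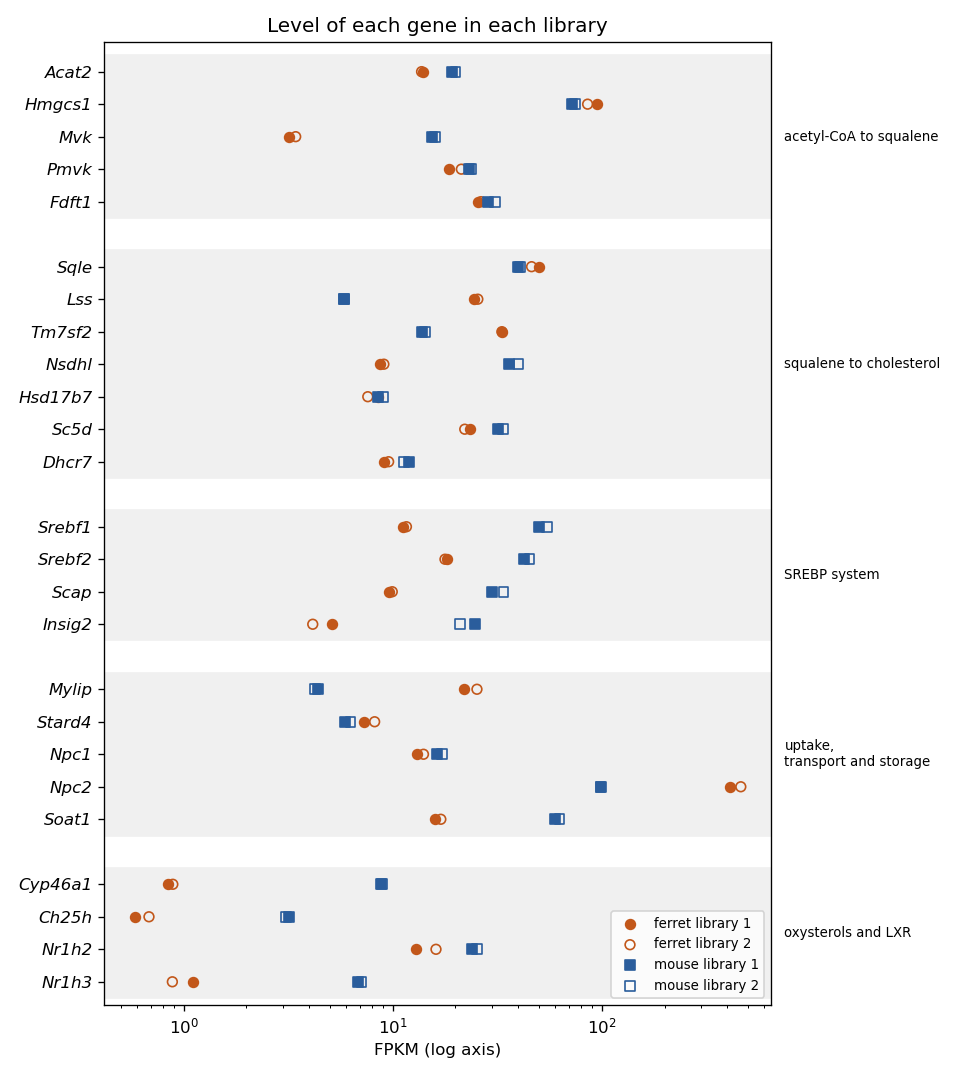
FPKM of the 25 genes in each of the 4 libraries on a log axis, with ferret libraries as circles and mouse libraries as squares, grouped by role. Duplicates lie close together, and Npc2, at 410 and 463 FPKM in ferret against 98.9 and 98.8 in mouse libraries, is the highest gene in both species.

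The enzymes that lead from acetyl-CoA to squalene were mostly at like levels in both species, with Mvk as the exception. Hmgcs1, which makes HMG-CoA and stands at the entry of the pathway, had 95.3 and 85.7 FPKM in ferret and 72.5 and 74.6 in mouse libraries, and it was the enzyme with the highest level in ferret astrocytes. Its log2 difference was 0.29 (95% interval 0.14 to 0.44) and it was not called. Acat2, a cytosolic thiolase that joins acetyl-CoA units, stood at 13.9 ± 0.162 FPKM (SD, n = 2) in ferret against 19.6 ± 0.544 (SD, n = 2) in mouse astrocytes. Pmvk, the phosphomevalonate kinase, had 18.6 and 21.3 FPKM in ferret and 23.1 and 23.7 in mouse libraries. Fdft1, the squalene synthase that commits the route to sterols, stood at 26.1 ± 0.544 FPKM (SD, n = 2) in ferret against 29.7 ± 1.53 (SD, n = 2) in mouse. On the log2 scale these 3 genes differed by -0.47, -0.22 and -0.18, close to the median of all genes, and none was called. The values of Pmvk and Fdft1 turned to 0.15 and 0.20 after rescaling to the same sum. In the mouse annotation 9 of the 25 genes share exonic bases with another gene. For Fdft1 this is 18.3% of the bases, shared with Ctsb on the opposite strand, and for Hmgcs1 12.1%, shared with an antisense transcript.

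Mvk, the mevalonate kinase, was the one gene of this stretch that was called. It had 3.20 and 3.44 FPKM in ferret libraries against 15.4 and 16.0 in the mouse libraries. Both ferret libraries were far below both mouse libraries, and the mean was 4.73-fold lower in ferret. The log2 difference was -1.95 (SE 0.072, adjusted p = 3.67e-09), and it stayed between -1.99 and -1.91 when each library was left out in turn. Mvk fell from a mean percentile of 69.9 among the shared symbols in mouse to 44.0 in ferret libraries. The next kinase of the route, Pmvk, kept a percentile of 81.0 in ferret and 78.8 in mouse. Mouse Mvk lies at chr5:114444269-114460591 (GRCm38, plus strand), with 11 exonic regions.

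From squalene onwards, 2 of 7 enzymes were called higher in ferret astrocytes, beside 13.1% of all tested genes, 1 was called lower, beside 30.1%, and 4 were not called. Lss, the lanosterol synthase that folds the linear precursor into the first sterol, had 24.6 and 25.6 FPKM in ferret and 5.87 and 5.88 in mouse libraries. It was 4.28-fold higher in ferret, with a log2 difference of 1.93 (SE 0.065, adjusted p = 1.95e-09). Its mean percentile was 85.0 in ferret and 47.7 in mouse libraries. The mouse gene lies at chr10:76531588-76557138 (GRCm38, plus strand). Its exons cover 10787 bases in GENCODE, against a median of 4594 bases for the 25 genes, and its longest transcript has 6992 bases. Ferret gene models were not used here, and the part of model length in the FPKM difference of Lss was not tested.

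Tm7sf2, a sterol reductase that acts after lanosterol has lost its first methyl group, was the other enzyme called higher. It had 33.5 and 33.3 FPKM in ferret and 13.9 and 14.3 in mouse libraries, so that the duplicates of each species differed far less than the species did. The mean was 2.37-fold higher in ferret, a log2 difference of 1.19 (SE 0.060, adjusted p = 3.22e-08). Mouse Tm7sf2 lies at chr19:6062821-6068373 (GRCm38, minus strand), and 12.1% of its exonic bases are shared with Vps51 on the same strand, and how the quantification divided such reads was not tested.

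Nsdhl, an X-linked dehydrogenase that helps to remove the methyl groups of the sterol ring, moved the other way. Its FPKM was 8.67 and 9.09 in ferret and 36.0 and 40.1 in mouse libraries, 4.28-fold lower in ferret. The log2 difference was -1.98 (SE 0.071, adjusted p = 3.10e-09). Hsd17b7, which works in the same demethylation steps, had 8.49 and 7.61 FPKM in ferret and 8.52 and 8.97 in mouse libraries. The highest ferret and the lowest mouse value nearly touched, the log2 difference was -0.11 (95% interval -0.28 to 0.07, adjusted p = 0.207), and Hsd17b7 was the one gene of the 25 that did not pass the adjusted p.

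Sqle, the squalene epoxidase and a rate-controlling step, had 50.0 and 46.2 FPKM in ferret and 39.8 and 40.7 in mouse libraries, with a log2 difference of 0.25 that was not called. Sc5d, a sterol desaturase, stood at 22.9 ± 1.01 FPKM (SD, n = 2) in ferret against 32.9 ± 1.17 (SD, n = 2) in mouse astrocytes. Dhcr7, which catalyses the last reduction to cholesterol in one branch of the route, stood at 9.32 ± 0.357 (SD, n = 2) in ferret against 11.7 ± 0.487 (SD, n = 2) in mouse. The log2 differences of Sc5d and Dhcr7 were -0.51 and -0.29. On rescaling to the same sum that of Dhcr7 turned to 0.06 and that of Hsd17b7 to 0.24.

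Summed over the 12 enzymes measured in both species, the level was 315 and 304 FPKM in ferret and 307 and 320 in mouse libraries, so the sums overlapped between species. As a share of the FPKM of all shared symbols the 12 enzymes made up 0.138% and 0.129% in ferret and 0.102% and 0.104% in mouse libraries. The direction of the summed enzymes therefore depended on the scaling. Among the enzymes with a value in one species, mouse Msmo1, a sterol methyl oxidase, stood at 79.3 ± 0.402 FPKM (SD, n = 2). Mouse Fdps and Idi1, which make and isomerize isoprenoid precursors, stood at 35.6 and 27.1 FPKM, mouse Ebp, a sterol isomerase, at 11.3, and ferret Mvd, the mevalonate decarboxylase, at 13.0.

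Ratios of FPKM within a library do not change when libraries are rescaled, and those between enzymes were chosen after the values were seen. Of the 11 ratios between consecutive measured enzymes of the route, 5 differed between species by more than 2-fold. These were the ratios next to Mvk and Nsdhl, which each entered 2 of the 5, and that of Lss to Sqle. Mvk stood at 0.0336 and 0.0401 of Hmgcs1 in the ferret libraries against 0.212 and 0.214 in the mouse libraries. The ratio of Lss to Sqle was 0.492 and 0.553 in ferret and 0.148 and 0.144 in mouse libraries. Nsdhl stood at 0.258 and 0.273 of Tm7sf2 in ferret, but at 2.59 and 2.81 of it in mouse libraries. The order of these enzymes was thus inverted between the species, with Tm7sf2 above Nsdhl in both ferret libraries and below it in both mouse libraries. The ratio of Fdft1 to Pmvk, at 1.38 and 1.24 in ferret and 1.24 and 1.30 in mouse libraries, was the one ratio of the 11 whose values overlapped. For 94.1% of all tested genes the FPKM of both ferret libraries also lay on one side of both mouse libraries. Ratios between genes drawn from all tested genes were not computed, so these counts of ratios are no result about the enzymes. Across the 12 enzymes, which share libraries and gene models, the mean levels of the species had a Spearman rho of 0.45, and across all tested genes rho was 0.68.

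**Figure D2:**
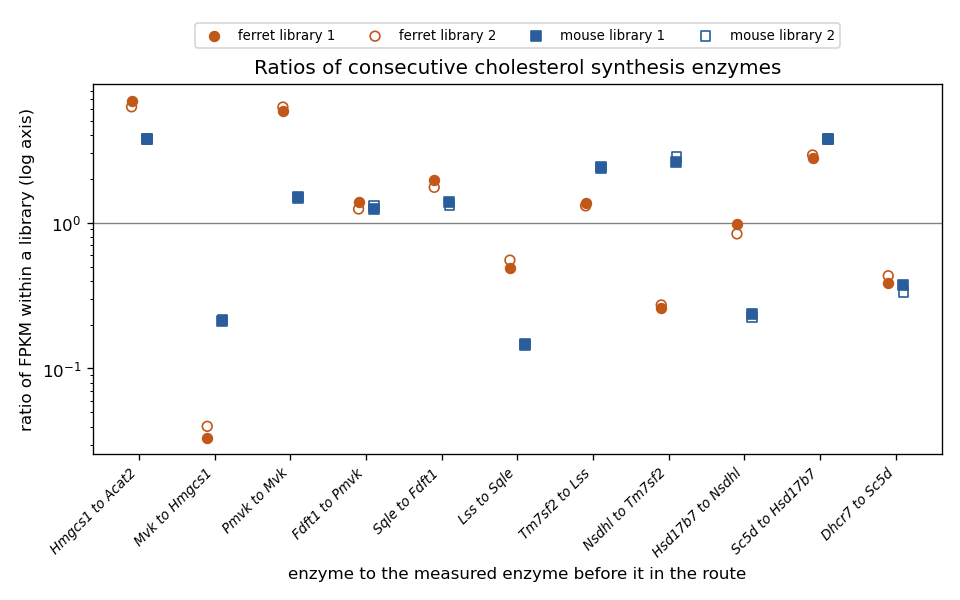
FPKM of each cholesterol synthesis enzyme divided by that of the measured enzyme before it, within each library, on a log axis, with ferret libraries as circles and mouse libraries as squares. Nsdhl to Tm7sf2 lies below 1 in both ferret libraries (0.258 and 0.273) and above 1 in both mouse libraries (2.59 and 2.81).

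The 4 measured genes of the SREBP system, Srebf1, Srebf2, Scap and Insig2, were all called lower in ferret astrocytes with FPKM as deposited, beside 30.1% of all tested genes, and 3 of the 4 after rescaling, beside 21.7%. Srebf1 encodes SREBP-1, which also drives fatty acid synthesis. It had 11.2 and 11.6 FPKM in ferret and 50.0 and 54.7 in mouse libraries, 4.58-fold lower in ferret, with a log2 difference of -2.10 (SE 0.067, adjusted p = 1.29e-09). Srebf2 encodes SREBP-2, the factor most devoted to cholesterol. Its FPKM was 18.2 and 17.8 in ferret and 42.7 and 45.1 in mouse libraries, 2.44-fold lower, with a log2 difference of -1.24 (SE 0.061, adjusted p = 2.69e-08). After rescaling to the same sum or quantile normalization the value for Srebf2 was -0.86 and no longer met the call. The 2 ferret libraries stayed well below the 2 mouse libraries for both genes. Mouse Srebf1 lies at chr11:60199089-60222581 (GRCm38, minus strand), and Srebf2 at chr15:82147181-82205379 (plus strand).

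Scap, the escort of the SREBPs, had 9.61 and 9.96 FPKM in ferret and 30.1 and 33.9 in mouse libraries. It was 3.27-fold lower in ferret, a log2 difference of -1.61 (SE 0.073, adjusted p = 1.54e-08). Of its exonic bases in the mouse, 13.2% are shared with a transcript on the opposite strand. Insig2, which retains the SREBP and SCAP complex in the endoplasmic reticulum, had 5.14 and 4.15 FPKM in ferret and 24.7 and 21.0 in mouse libraries. Its duplicates differed more than those of most of the genes, by 0.25 on the log2 scale in ferret and 0.22 in mouse. The species still differed by far more, with a log2 difference of -2.08 (SE 0.103, adjusted p = 2.84e-08). Genes for the escort and for a retention protein were thus both lower in ferret, together with the factors they carry. Insig1, the sterol-induced paralog, stood at 27.0 and 29.2 FPKM in the mouse libraries, 1.09 and 1.39 times Insig2.

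The balance between the SREBP genes differed as well. The ratio of Srebf1 to Srebf2 was 0.617 and 0.654 in the ferret libraries, against 1.17 and 1.21 in the mouse libraries. Srebf2 was therefore the more abundant of the pair in ferret and Srebf1 in mouse astrocytes.

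**Figure D3:**
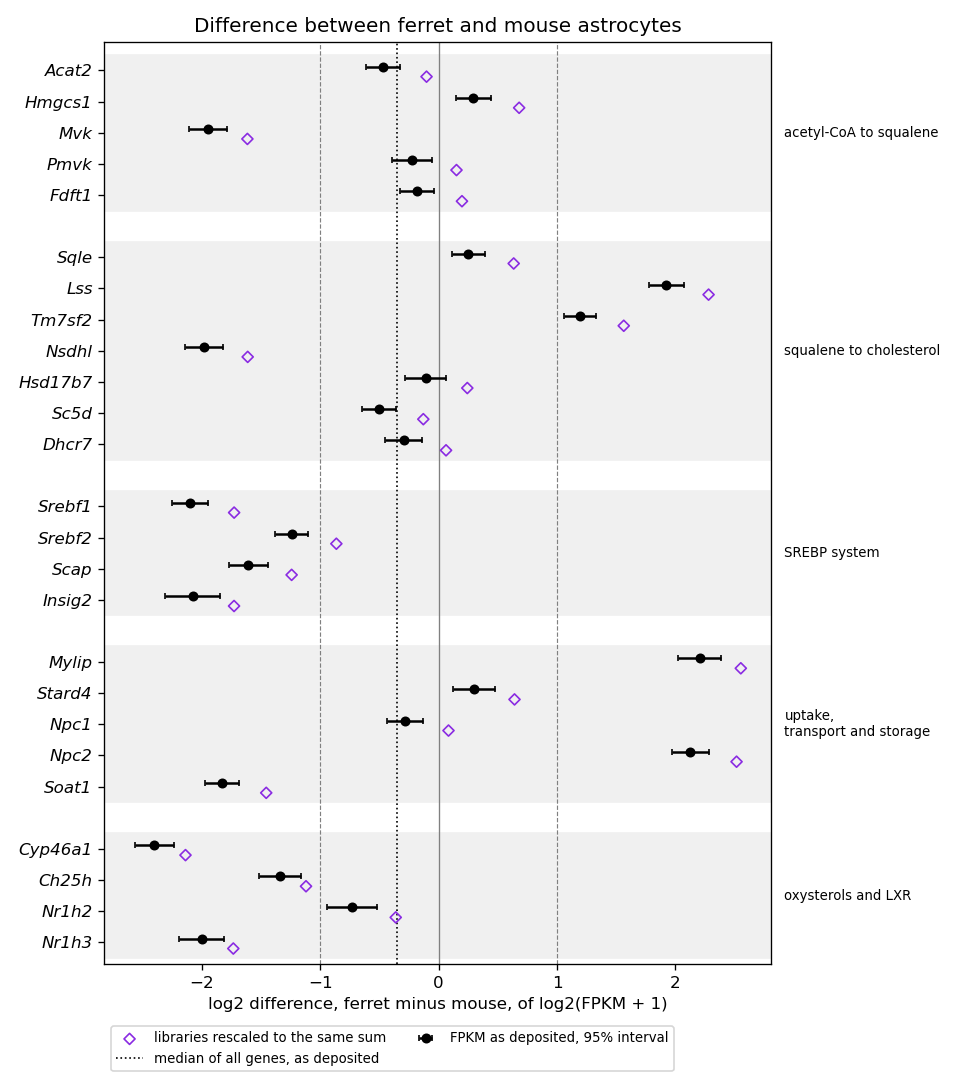
Log2 difference of each gene, ferret minus mouse, with FPKM as deposited (points with the 95% interval of limma) and with the libraries rescaled to the same sum (diamonds). The dotted line marks the median of all tested genes at -0.35 and dashed lines mark -1 and 1. The 4 SREBP genes lie from -2.10 to -1.24, whereas 8 of the 12 enzymes lie between the dashed lines on both scales.

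Genes for sterol uptake, transport and storage went in both directions. Mylip encodes IDOL, a ubiquitin ligase that sends lipoprotein receptors to the lysosome and is switched on by LXR. It had 21.9 and 25.3 FPKM in ferret and 4.41 and 4.24 in mouse libraries, and at 5.46-fold higher in ferret it had the largest positive log2 difference of the 25 genes, 2.21 (SE 0.081, adjusted p = 3.45e-09). Its percentile was 83.9 in ferret and 42.5 in mouse libraries, the largest upward shift among these genes. The mouse gene lies at chr13:45389742-45412022 (GRCm38, plus strand).

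Npc2 and Npc1 act in sequence, NPC2 picking up cholesterol inside the late endosome and handing it to the membrane protein NPC1. Npc2 had 410 and 463 FPKM in ferret and 98.9 and 98.8 in mouse libraries, 4.42-fold higher, with a log2 difference of 2.13 (SE 0.069, adjusted p = 1.55e-09). Npc1 had 13.1 and 14.1 FPKM in ferret and 16.3 and 17.2 in mouse libraries. Its log2 difference was -0.28, or 0.08 after rescaling, and it was not called on either scale. Npc2 exceeded Npc1 by 31.2-fold and 33.0-fold in the ferret libraries against 6.08-fold and 5.74-fold in the mouse libraries. The partners were thus further apart in both ferret libraries than in either mouse library. Mouse Npc2 lies at chr12:84754562-84773152 (GRCm38, minus strand).

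Soat1, the enzyme that esterifies cholesterol for storage in droplets, was lower in ferret astrocytes. It had 15.9 and 17.0 FPKM in ferret and 59.7 and 62.8 in mouse libraries, 3.72-fold lower, with a log2 difference of -1.83 (SE 0.064, adjusted p = 2.32e-09). Set against Npc1, a ratio chosen after the values were seen, Soat1 stood at 1.21 in both ferret libraries and at 3.67 and 3.65 in the mouse libraries. Stard4, a carrier that moves cholesterol between membranes, had 7.29 and 8.21 FPKM in ferret and 5.92 and 6.29 in mouse libraries. Its log2 difference of 0.30 (95% interval 0.12 to 0.48) was not called.

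Of the oxysterol enzymes and LXR genes, Cyp46a1, Ch25h and Nr1h3 were near or below 1 FPKM in the ferret libraries, whereas Nr1h2 was not. These 3 genes were called lower, but they are the genes that entered the test through their mouse level alone, so their number is no result about the group. Cyp46a1, which hydroxylates cholesterol so that it can leave the brain and is known mainly from neurons, had 0.838 and 0.889 FPKM in ferret and 8.83 and 8.88 in mouse libraries. It had the most negative log2 difference of the 25 genes, -2.40 (SE 0.074, adjusted p = 1.07e-09), and the mean was 10.3-fold lower in ferret. Ch25h, an intronless gene whose product makes an oxysterol that blocks SREBP release and is known from macrophages, had 0.583 and 0.683 FPKM in ferret and 3.19 and 3.08 in mouse libraries. Its log2 difference was -1.34 (SE 0.078, adjusted p = 9.58e-08) and became -0.95 after quantile normalization, which did not meet the call. A noncoding transcript on the opposite strand shares 11.5% of its exonic bases in the mouse.

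Nr1h3 encodes LXR alpha, the receptor form rich in liver and macrophages. It had 1.11 and 0.884 FPKM in ferret and 6.86 and 7.10 in mouse libraries, 7.02-fold lower, with a log2 difference of -2.00 (SE 0.083, adjusted p = 8.19e-09). Nr1h2, the widely expressed LXR beta, had 12.9 and 16.1 FPKM in ferret and 24.0 and 25.4 in mouse libraries. Its log2 difference was -0.73 (SE 0.094, adjusted p = 4.02e-05), or -0.36 after rescaling, and it was not called. Nr1h2 was the more abundant LXR gene in every library, and Nr1h3 stood at 0.0855 and 0.0548 of it in ferret and at 0.286 and 0.279 in mouse libraries. GENCODE annotates a processed pseudogene of Nr1h2 in the mouse (Nr1h2-ps, chr9:74364586-74365063, GRCm38), and how reads were divided between the copies was not tested.

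Soat1, Ch25h and Nr1h3 are also expressed by macrophages, but they were picked from the genes called lower. The 25 genes were not sorted by expression in macrophages. The microglial sum was also lower in ferret, at 78.0 to 78.5 against 1011 to 1031 FPKM. Beside the same sums, Lss, Tm7sf2, Mylip and Npc2 were called higher in ferret, Npc2 with a log2 difference of 2.13. The part of microglial RNA in these differences was not tested. In such bulk libraries, fewer cells of a type and less RNA per cell cannot be told apart.

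**Figure D4:**
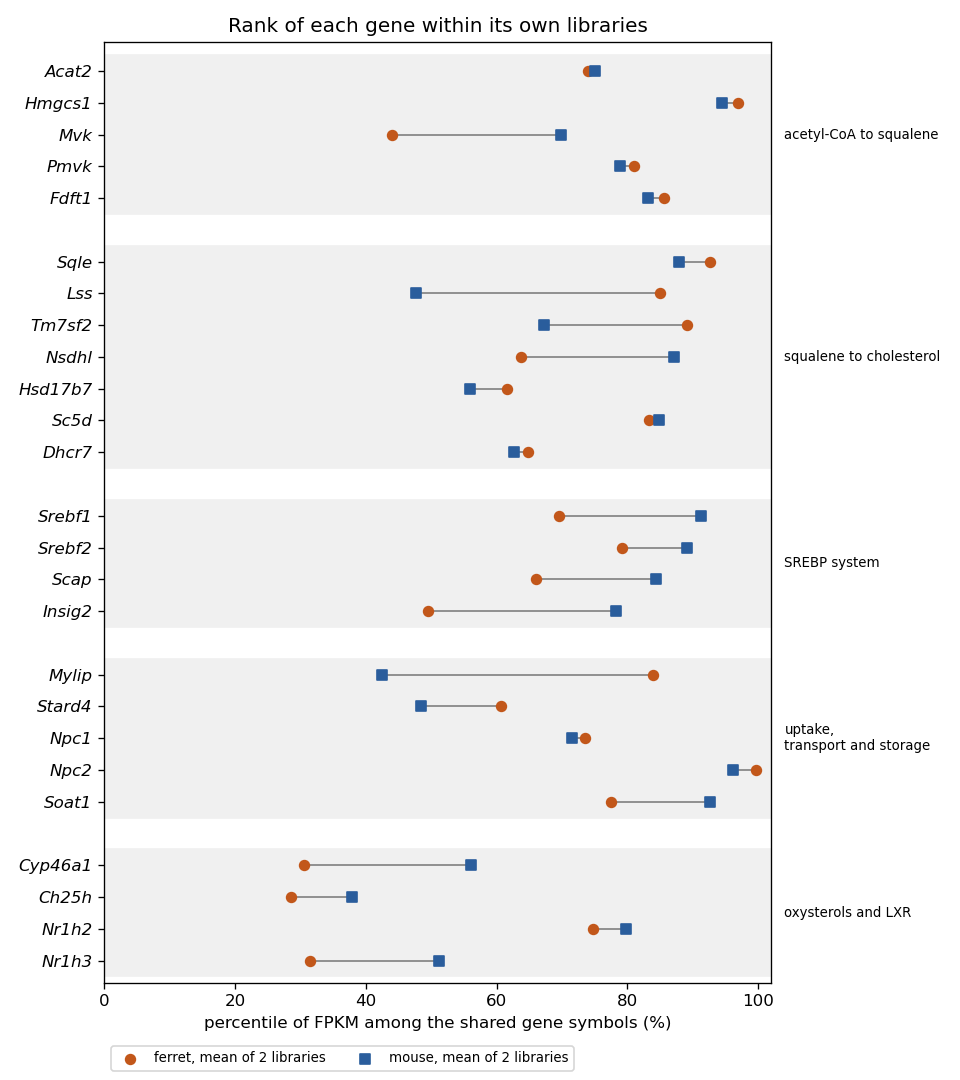
Percentile of each gene among the 13373 shared symbols, as the mean of the 2 libraries of a species, with ferret as circles and mouse as squares joined by a line. Mylip moved from 42.5 in mouse to 83.9 in ferret and Insig2 from 78.2 to 49.5, whereas Hmgcs1 and Npc2 ranked above 94 in both species.

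The percentiles, which rescaling does not change, were lower in ferret for 13 of the 25 genes and higher for 12. The shifts ranged from -28.7 points for Insig2 to 41.4 points for Mylip. Across the 25 genes, which share libraries and gene models, the mean levels of the species had a Spearman rho of 0.50.

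A second list held 31 other sterol genes, of which 28 had a shared symbol and 27 were tested. Of these, 2 were called higher and 7 lower, beside 13.1% and 30.1% of all tested genes, and the median of the list was -0.55 on the log2 scale. After rescaling to the same sum 5 were called higher and 5 lower, beside 19.1% and 21.7%. These counts were near those of all tested genes, and their balance depended on scaling. The genes called higher were Abcg1, an LXR-driven sterol exporter, and Acat1, the mitochondrial thiolase. Acat1 had 58.9 and 65.7 FPKM in ferret and 25.9 and 27.1 in mouse libraries, a log2 difference of 1.20 (adjusted p = 8.12e-08). Abcg1 had 8.51 and 9.05 FPKM in ferret and 1.03 and 1.26 in mouse libraries, a log2 difference of 2.19 (SE 0.083, adjusted p = 4.45e-09). Abcg1 and Mylip, both known LXR targets, were higher in the species with the lower Nr1h3, while Srebf1, another known LXR target, was lower there. Nr1h2, the more abundant LXR gene in every library, was not called. These are not all LXR targets, and a relation of their levels to the LXR genes was not tested.

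The most negative differences of the second list were those of Erlin2, Nceh1 and Hsd3b7. Erlin2 encodes a membrane protein of the endoplasmic reticulum that takes part in the sterol-driven degradation of the pathway's enzymes and in SREBP retention. It had 16.0 and 17.4 FPKM in ferret and 100.7 and 101.9 in mouse libraries, a log2 difference of -2.53 (adjusted p = 2.68e-10). Its paralog Erlin1 went the other way, with 20.2 and 19.6 FPKM in ferret and 10.1 in both mouse libraries. The log2 difference of Erlin1 was 0.91 and not called, but 1.27 and called higher after rescaling to the same sum. Nceh1, which hydrolyses the esters that SOAT1 makes, had 4.34 and 4.75 FPKM in ferret and 20.8 and 21.7 in mouse libraries. The genes for forming and for cleaving cholesterol esters were thus both lower in ferret, with log2 differences of -1.83 for Soat1 and -2.00 for Nceh1. Hsd3b7, which processes oxysterols towards bile acids, had 5.80 and 5.71 FPKM in ferret and 24.6 and 26.1 in mouse libraries, a log2 difference of -1.96 (adjusted p = 2.10e-09).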

How the data were processed

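Polyadenylated RNA of cultured ferret and mouse astrocytes (2 libraries each) was sequenced with a stranded kit as paired-end reads. The authors aligned the reads with STAR (version 2.7.0f) to the Ensembl genome of each species and deposited one FPKM value per gene and library from Cufflinks (version 2.2.1), normalized to mapped fragments and exon length. The strand setting of the quantification is not given in the sources used here. The deposited FPKM files hold no counts and read counts were not used here, so depth is not given, low values carry no counting interval, and a 0 can be a failed estimate. FPKM also depends on how long and how complete the gene models of each species are.

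Symbols were matched in upper case, and for 7 ferret and 13 mouse symbols with several values the highest mean was used. limma (version 3.58.1, R 4.3.3, empirical Bayes with trend) was fitted to log2(FPKM + 1) of all genes that passed the filter, with Benjamini-Hochberg adjustment, and was tested on simulated data. The same 10204 genes were used under all alternatives except the one without a filter. The members and lists were chosen with earlier results of these data known. Every member was described, values in each library were given for called members, and of the second list at most 3 genes in each direction were named. Mouse gene positions and exonic bases are those of GENCODE M21 on GRCm38, a release other than the authors'. Promoter motifs were planned and not run, as promoter sequences were not used here.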

Additional observations from a re-analysis of the deposited data

How the results depend on the processing

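Scaling between species was the choice that mattered. The median log2 difference of the 25 genes was -0.47 as deposited, -0.10 with libraries rescaled to the same sum and -0.07 with quantile normalization, together with the median of all tested genes. The log2 differences of 5 uncalled genes turned positive after rescaling and after quantile normalization, to 0.15 and 0.16 for Pmvk, 0.20 and 0.21 for Fdft1, 0.24 and 0.31 for Hsd17b7, 0.06 and 0.13 for Dhcr7, and 0.08 and 0.12 for Npc1. The count of other sterol genes called higher was 2 as deposited, 5 with rescaling and 6 with quantile normalization, and the count called lower was 7, 5 and 3. Over all tested genes, 1336 were called higher and 3069 lower as deposited, 1954 and 2215 after rescaling, and 2080 and 2082 after quantile normalization. Each of the 25 calls stayed as reported with a pseudocount of 0.1, without the filter, with summed values of a symbol and with each library left out in turn. Leaving out single libraries gave 4 genes called higher and 10 lower each time, and a median between -0.50 and -0.44. For the other sterol genes it gave 2 to 3 higher and 7 to 8 lower.

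The replicate numbers are shared between species, but ferret and mouse libraries come from different animals. Deviations of same-numbered libraries from their species means had a correlation of 0.00995 over the tested genes. With the replicate number as a block, 4 of the 25 genes were called higher and 10 lower, the median log2 difference was -0.47, and no call among them changed. Read counts were not used here, so the precision given for low genes such as Ch25h and Cyp46a1 rests on the duplicates alone.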
